A study of Mus musculus with 16 samples.

Results

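The late response of mouse embryonic stem (ES) cells to removal of Rybp is described here from 8 of the 16 arrays of the series, those taken at day 12. They are the 4 arrays of cells that received 4-hydroxytamoxifen (OHT), called KO below, and the 4 arrays of untreated cells of the same clones, called control. Each group holds replicate 1 and replicate 2 of clone 10 and of clone 15, and arrays of the same clone and replicate number were compared as pairs. The other 8 arrays, of the same design at day 4, enter only where the days are compared and as part of the estimate of the spread.

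Every array came from ES cells, pluripotent cells of the early embryo, with a 129/B6 hybrid strain background. KO cells were Rybp-deficient after OHT at 800 nM for 24 hours, and control cells were labelled wild-type and had no OHT. No array came from cells that lack the deletable allele and received OHT, so effects of OHT itself and of Rybp loss cannot be told apart. The labels name neither the recombinase nor its promoter, and each clone is a single line. The protocols allow growth with serum and leukaemia inhibitory factor on irradiated mouse embryonic fibroblasts or on gelatin, without saying which was used for an array. Nor do they tell if the replicates are separate cultures, and p-values here therefore measure only how these arrays vary, which may be technical variation.

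Polycomb repressive complex 1 (PRC1) is a family of chromatin complexes built on Ring1 and Rnf2 that place ubiquitin on histones and help keep developmental genes silent. Rybp belongs to the variant forms of PRC1, which lack the Cbx proteins of the canonical forms and stimulate the ubiquitin mark. One variant form contains E2f6, Mga and Max, factors that bind E-box or E2F motifs, and it is known for silencing germ cell genes in ES cells. ES cell cultures also hold a rare state in which genes of the 2-cell embryo, such as those of the Tcstv and Zscan4 groups, are active.

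Transcript levels of 18193 genes were read as linear intensities, 1 probe set per gene, with 2 further entries for Rybp. Every array has the same median intensity, 93.3, and a lower quartile of 28.3, near which values carry little information. Replicate noise depended on brightness, with a median SD of 0.96 in log2 units for genes whose mean log2 value was below 5 and of 0.16 for those above 11. For some genes whose fold rests on such dim values, the fold with every value below 28.3 raised to it (the floor) is given too. Other folds that rest in part on dim values are given without the floor, among them those of Tex13b, Arg2, Taf7l, Zfp750, Foxa1, Hoxb13 and Meiob. All 8 ES cell markers, Pou5f1, Sox2 and Nanog among them, lay above the array median on every array. Their summed intensity was 103468 to 120373 in KO and 113434 to 133164 in control arrays, lower in KO in 4 of 4 pairs, with 2 of the 8 called lower and 0 higher. The 10 feeder fibroblast markers summed to 1805 to 2756 in KO and 1776 to 2212 in control arrays and were higher in KO in 3 of 4 pairs, with none below the lower quartile in both groups. In bulk RNA, fewer cells of a type and less RNA per cell cannot be told apart. The 3' over 5' log2 signal of the transferrin receptor control transcript, a sign of RNA quality, was 1.17 ± 0.12 in KO and 1.19 ± 0.14 in control arrays (SD, n = 4 each). For beta-actin it was 0.52 ± 0.09 in KO and 0.45 ± 0.03 in control arrays, higher in KO in 3 of 4 pairs. For pyruvate carboxylase it was 0.79 ± 0.26 in KO and 0.61 ± 0.18 in control arrays, also higher in KO in 3 of 4 pairs, and for Gapdh -0.33 ± 0.04 in KO and -0.31 ± 0.01 in control arrays, higher in KO in 2.

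The targeted transcript was strongly reduced on the first of its 2 probe sets. That probe set read 143, 109, 249 and 256 in KO arrays, against 2749, 3434, 2759.9 and 3170.5 in control arrays, given here and below with both replicates of clone 10 first, then both of clone 15. The groups were far apart (log2 fold change -4.09 ± 0.25, limma adjusted p = 0.000693), and the residual KO signal was higher on both clone 15 arrays than on both clone 10 arrays. The second probe set read 2815, 4227, 4606 and 5148 in KO arrays, against 1404, 2108, 157 and 170.4 in control arrays (log2 fold change 2.95 ± 0.94, limma adjusted p = 0.107). It did not pass the test, although every KO array lay above every control array, opposite to the first probe set. Its control level was far higher in clone 10 than in clone 15. Both probe sets are annotated to the Rybp pseudogene as well, and the deleted exons are not given in the sources used here.

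At day 12 the response ran in both directions, with the largest changes upward. Limma, fitted to log2 values of all 16 arrays with the 8 pairs as a block, called 852 genes higher (4.68% of 18195 entries) and 627 lower (3.45%) in KO at a Benjamini-Hochberg adjusted p under 0.05, 8.13% in all. The median size of a call was modest, 1.59-fold for higher genes and 1.47-fold for lower genes with dim values raised to 28.3. On that scale 235 higher and 52 lower genes changed at least 2-fold. At least 8-fold changes were found for 22 higher genes and for 1 lower entry, which was the first Rybp probe set. The median control intensity was 400.2 for higher genes and 1094 for lower genes, against 189 over all genes. Of the 235 higher genes with at least a 2-fold change, 118 had a control mean below the array median.

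The arrays of both groups did not overlap for 647 of the 852 higher genes, and 7.41% of all entries had every KO array above every control array. For 424 of the 627 lower genes every KO array was below every control array, as it was for 4.67% of all entries. All 4 pairs pointed upward in 17.4% of all entries and downward in 14.1%. The median difference over the 852 higher genes lay between 0.66 and 0.72 on the log2 scale in the 4 pairs, and over the 627 lower genes between -0.61 and -0.51. Without the pairs as a block, limma called 399 genes higher (2.19%) and 164 lower (0.901%), of which 374 and 159 were also called with it. Leaving out 1 pair at a time gave 266 to 625 higher and 170 to 525 lower genes, and 225 higher and 133 lower genes were called in all 4 such fits. Fitted with the 8 arrays of day 12 alone and the same block, limma called 45 genes higher (0.247%) and 6 lower (0.033%), of which 42 and 4 were among the calls above. Of 118 named genes past the threshold, 23 passed in that fit, among them AF067061, Usp17la, Pramel18, Dazl, Mael, Mov10l1, Ddx4, Syce1, Tex11, Sohlh2, Rhox6, Rhox13, Cdkn1c and Myb. The other 95 kept their direction and rest on the spread estimated over both days. Genes named below were called in all 4 leave-out fits unless stated. Counts of list members below stand beside 4.68% of all entries called higher and 3.45% called lower.

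**Figure D1:**
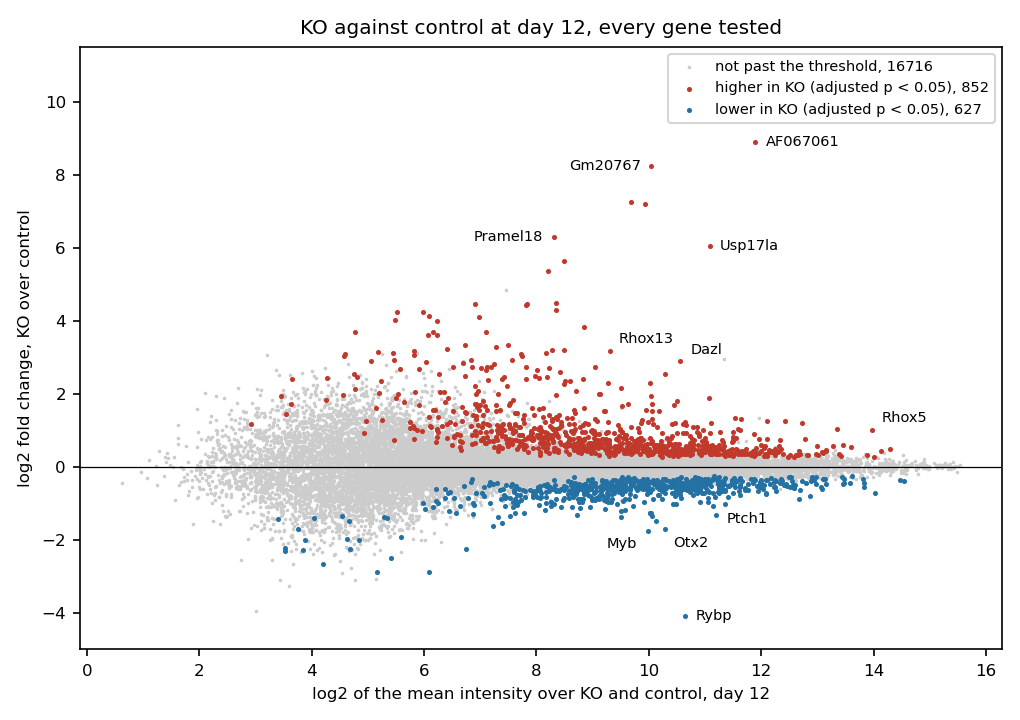
Log2 fold change of KO over control at day 12 (y axis) against the log2 of the mean intensity over both groups (x axis), 1 point per entry tested. The 852 higher genes (red) reach further from 0 than the 627 lower genes (blue), of which the first Rybp probe set lies lowest.

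Genes listed for the 2-cell embryo made up most of the largest increases. Of the 12 largest increases by the fold with this floor, 8 belong to the 2-cell stage and preimplantation list. Its members, like those of all lists here, were chosen with earlier results of these data known, so this share is a description without a test. AF067061, a member of that list, read 6597, 7691, 9234 and 6846 in KO arrays, against 9.44, 33.8, 15.6 and 12.3 in control arrays (log2 fold change 8.90 ± 0.38, limma adjusted p = 0.000171). Gm20767 read 2001, 2280.1, 2119 and 1984 in KO arrays, against 6.48, 3.29, 3.49 and 31.5 in control arrays (log2 fold change 8.23 ± 0.64, limma adjusted p = 0.00143). The control values of both lay mostly below 28.3, and with dim values raised to it the folds were 254 and 72.0. Usp17la, a deubiquitinating enzyme, read 3887, 4604, 4619 and 3958 in KO arrays, against 52.4, 82.8, 63.1 and 60.4 in control arrays (log2 fold change 6.06 ± 0.33, limma adjusted p = 0.000537), so its rise did not depend on dim values. BC080696 read 1874, 1550.3, 2195 and 2101 in KO arrays, against 5.77, 28.6, 5.76 and 31.0 in control arrays (log2 fold change 7.19 ± 0.65, limma adjusted p = 0.00226, and 65.9-fold with the floor). Ubtfl1, a preimplantation gene with HMG boxes, read 782, 619, 735 and 656 in KO arrays, against 35.1, 23.4, 23.5 and 1.92 in control arrays (log2 fold change 5.65 ± 0.77, limma adjusted p = 0.00897, and 23.3-fold with the floor).

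The remaining large increases were picked from the same arrays by the same rule, so a separation of their groups follows largely from that choice. Over all entries 7.41% had every KO array above every control array. Gm11544 averaged 1621 ± 355 in KO arrays and 19.03 ± 21.6 in control arrays (7.26 ± 0.88 on the log2 scale, 49.0-fold with the floor), and Gm4850 averaged 569.7 ± 92.3 in KO arrays and 19.3 ± 20.4 in control arrays (5.36 ± 0.49, 17.3-fold). Gm11545 averaged 613 ± 56.4 in KO arrays and 42.1 ± 31.5 in control arrays (4.30 ± 0.56, 14.3-fold), and 3110040M04Rik averaged 857 ± 64.8 in KO arrays and 61.7 ± 13.1 in control arrays (3.82 ± 0.26, 14.1-fold). Errors beside an intensity are SD over 4 arrays and those beside a log2 fold change are standard errors. Limma adjusted p for these 4 genes ran from 0.000915 to 0.00781. Pramel18, of the Prame-like family of leucine-rich repeat proteins, read 723, 502, 575 and 697 in KO arrays, against 7.93, 3.81, 8.93 and 13.8 in control arrays (log2 fold change 6.31 ± 0.39, limma adjusted p = 0.000766, and 21.8-fold with the floor). Tex13b, an X-linked testis-expressed gene, averaged 606 ± 250.1 in KO arrays and 42.4 ± 27.8 in control arrays (log2 fold change 4.49 ± 0.63, limma adjusted p = 0.00924). Arg2, the mitochondrial arginase, averaged 431 ± 63.5 in KO arrays and 25.1 ± 17.01 in control arrays (log2 fold change 4.46 ± 1.01, limma adjusted p = 0.0413), but it was not called in any of the 4 fits that left out a pair.

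**Figure D2:**
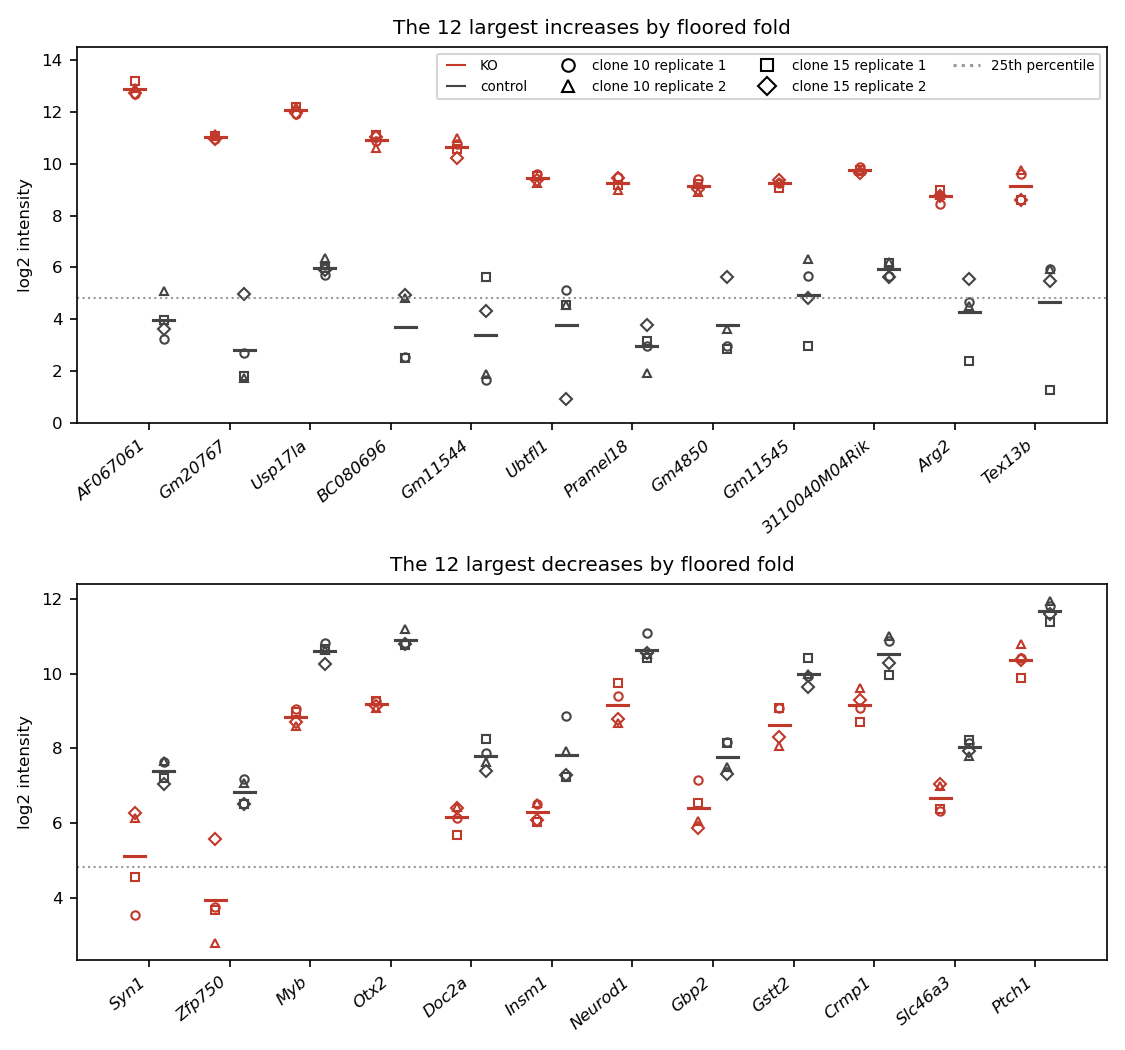
Log2 intensity (y axis) of the 12 largest increases (upper panel) and the 12 largest decreases (lower panel) on the 4 KO arrays (red, left of each gene) and the 4 control arrays (grey, right), with the group mean as a bar and the lower quartile of intensity dotted. The KO and control arrays do not overlap for any of these 24 genes, which follows largely from their choice on these same arrays. Over all entries 7.41% had every KO array above every control array and 4.67% below. Most control values of the largest increases lie at or below the lower quartile.

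Over the whole 2-cell and preimplantation list, 20 of the 31 genes measured rose and 2 fell, with a median log2 fold change of 1.74 (1.42 with the floor), against 0.01 over all genes tested. Of these, 12 were higher in all 4 leave-out fits and 19 were higher without the block. Another 31 of the 62 listed names, all listed Zscan4 genes among them, had no probe set of their own. Because the list was drawn up with earlier results of these data known, its counts and median describe the list and test nothing. Duxf3, which encodes the homeodomain activator Dux of the 2-cell programme, read 73.5, 169.6, 113 and 123 in KO arrays, against 53.5, 48.7, 6.17 and 39.8 in control arrays (log2 fold change 2.02 ± 0.59, limma adjusted p = 0.0856) and did not pass, although its arrays did not overlap. Sp110, a nuclear body protein, read 402, 477, 614 and 576 in KO arrays, against 87.2, 59.8, 85.8 and 83.4 in control arrays (log2 fold change 2.71 ± 0.24, limma adjusted p = 0.00192), whereas its other 2 probe sets read -1.09 and 0.24. In the Prame-like family 3 of 9 measured members rose. Beside Pramel18 these were Pramel12, which averaged 953 ± 124 in KO arrays and 484 ± 114 in control arrays (log2 fold change 0.996 ± 0.11, limma adjusted p = 0.00438), and Pramel13 (log2 fold change 0.48 ± 0.09, limma adjusted p = 0.0231), which was called in 1 of 4 leave-out fits.

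Some called genes lay side by side on chromosomes. Among 18145 genes placed in order, 66 neighbouring pairs were both higher and 37 both lower. With 4.68% of all entries called higher and 3.45% lower, some neighbouring calls and short runs arise without any link to position. Whether there were more than that was not tested. The longest run held 7 neighbouring measured genes, AF067063, D13Ertd608e, Tcstv1, Gm20767, AF067061, BC147527 and Tcstv3, the Tcstv group of 2-cell genes. D13Ertd608e read 562, 535, 614 and 531 in KO arrays, against 52.5, 54.8, 68.5 and 68.5 in control arrays (log2 fold change 3.21 ± 0.31, limma adjusted p = 0.00311). AF067063 (3.09 ± 0.63), Tcstv1 (4.00 ± 0.74), BC147527 (4.45 ± 0.76) and Tcstv3 (3.13 ± 0.68) passed at limma adjusted p from 0.0172 to 0.0375. Of these 4, BC147527 was called in 1 leave-out fit and the others in none. The genes of this run have related sequences and could share probe signal. A run of 3 held Slc35g1, a solute carrier (log2 fold change 1.27 ± 0.13, limma adjusted p = 0.00353), with Plce1 (1.48 ± 0.29) and Noc3l (0.50 ± 0.09). Another held H13 (0.38 ± 0.08), Mcts2 (0.38 ± 0.09) and Id1. Of these 6 genes Slc35g1 alone was called in all 4 leave-out fits, and the other 5 probe sets of H13 read from -0.68 to -0.15. Among decreases, Smarca4, Spc24, Kank2 and Dock6 lay together, as did Shkbp1, Sptbn4 and Blvrb. In the first of these runs Kank2 (-0.85 ± 0.10) and Dock6 (-0.90 ± 0.12) held in all 4 fits, with limma adjusted p of 0.00603 and 0.00802, while Smarca4 (-0.40 ± 0.08) and Spc24 (-0.32 ± 0.07) did not. Another probe set of Dock6 read 0.17. In the second, Sptbn4, a spectrin of neuronal membranes, held (log2 fold change -0.87 ± 0.07, limma adjusted p = 0.00136), and Shkbp1 (-0.44 ± 0.08) and Blvrb (-0.36 ± 0.07) did not.

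Germ cell genes were the other large group of increases. Among germ cell RNA regulators and piRNA pathway genes, 9 of 26 measured members rose (34.6%) and 1 fell (3.85%), with a median log2 fold change of 0.76. Over all entries 4.68% were higher and 3.45% lower. The germ cell lists, too, were drawn up with earlier results of these data known, so their counts describe them and test nothing. The piRNA pathway uses small RNAs to silence transposons in germ cells. Dazl, an RNA-binding protein of germ cell development, read 2624, 2854, 2839 and 2316 in KO arrays, against 408, 326, 391 and 299 in control arrays (log2 fold change 2.91 ± 0.09, limma adjusted p = 6.5e-05). Every KO array was above every control array, and the second Dazl probe set read 2.87. Mael, a piRNA pathway protein, read 2188, 2319.7, 1942 and 2119 in KO arrays, against 431, 327, 444 and 292 in control arrays (log2 fold change 2.54 ± 0.14, limma adjusted p = 0.000537). Mov10l1, a helicase of piRNA production, read 497, 696, 603 and 583 in KO arrays, against 115, 151, 99.9 and 133 in control arrays (log2 fold change 2.26 ± 0.12, limma adjusted p = 0.000527). Ddx4, the germ cell helicase Vasa, read 1827, 1331, 1915 and 1589 in KO arrays, against 472, 290.0, 618 and 415 in control arrays (log2 fold change 1.93 ± 0.11, limma adjusted p = 0.000688). None of these genes overlapped between groups. Stk31, a germ cell protein with a kinase domain, averaged 673 ± 80.3 in KO arrays and 162 ± 41.3 in control arrays (log2 fold change 2.08 ± 0.16, limma adjusted p = 0.00130). Of the 9 increases, 7 held in all 4 leave-out fits and 8 without the block.

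Genes of meiosis and the synaptonemal complex, the structure that joins paired chromosomes, moved in both directions. Of 38 measured members 10 rose (26.3%) and 3 fell (7.89%), against 4.68% and 3.45% of all entries, with a median of 0.21. Stra8, which starts meiosis in response to retinoic acid, read 959, 1196, 647 and 885 in KO arrays, against 119, 138, 176 and 119 in control arrays (log2 fold change 2.72 ± 0.21, limma adjusted p = 0.00136). Sycp1, the transverse filament of the complex, read 741, 519.9, 226 and 297 in KO arrays, against 83.9, 77.3, 36.2 and 74.0 in control arrays (log2 fold change 2.64 ± 0.20, limma adjusted p = 0.00140), and Syce1 of its central element read 1011, 1082, 940.2 and 1050.0 in KO arrays, against 186, 181, 225 and 249.9 in control arrays (log2 fold change 2.29 ± 0.15, limma adjusted p = 0.000799). All KO arrays of these 3 genes exceeded all control arrays. Tex11, an X-linked gene needed for crossovers, averaged 491 ± 27.1 in KO arrays and 92.7 ± 26.0 in control arrays (log2 fold change 2.44 ± 0.19, limma adjusted p = 0.00136). Ccnb1ip1, a ubiquitin ligase of crossover formation, averaged 444 ± 21.2 in KO arrays and 85.9 ± 31.97 in control arrays (log2 fold change 2.44 ± 0.20, limma adjusted p = 0.00159).

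The 3 meiosis genes that fell did so by less than 2-fold. They are named after their values were seen. Hsf2bp, a meiotic recombination factor, read 1162, 1492, 1363 and 1575 in KO arrays, against 1544, 2085, 2248 and 2408 in control arrays (log2 fold change -0.56 ± 0.07, limma adjusted p = 0.00851). All 4 pairs fell, but the groups overlapped. The meiotic cohesin gene Stag3 (-0.42 ± 0.09, limma adjusted p = 0.0305) and 4930432K21Rik, also known as Brme1 (-0.90 ± 0.19, limma adjusted p = 0.0316), were each called in 1 leave-out fit and missed the threshold without the block (0.490 and 0.218). Meiob, a single-strand DNA-binding protein of meiosis, had the largest decrease among members that did not pass, with 2.14, 7.40, 3.55 and 36.0 in KO arrays, against 52.3, 59.1, 76.5 and 45.3 in control arrays (log2 fold change -3.09 ± 0.83, limma adjusted p = 0.0672). Of its KO values 3 of 4 lay below the lower quartile.

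In the list of testis-expressed genes 8 of 51 rose (15.7%) and 1 fell (1.96%), against 4.68% and 3.45% of all entries. Of the increases, 5 held in all 4 leave-out fits. Slc25a31, the germ cell ADP/ATP carrier, read 623, 533, 459 and 433 in KO arrays, against 40.9, 45.8, 84.6 and 72.7 in control arrays (log2 fold change 3.12 ± 0.25, limma adjusted p = 0.00156). Ly6k, a surface protein of sperm precursors, averaged 377 ± 27.0 in KO arrays and 71.5 ± 9.73 in control arrays (log2 fold change 2.40 ± 0.13, limma adjusted p = 0.000537). Pdha2, the testis form of a pyruvate dehydrogenase subunit, averaged 87.3 ± 29.4 in KO arrays and 4.72 ± 2.12 in control arrays (log2 fold change 4.23 ± 0.53, limma adjusted p = 0.00721), but with the floor its fold shrank to 2.94. Taf7l, a germ cell form of a general transcription factor subunit, passed (log2 fold change 2.46 ± 0.57, limma adjusted p = 0.0438) and was called in 1 of 4 leave-out fits. Of 32 oocyte genes 3 rose (9.38%) and 0 fell. Sohlh2, a helix-loop-helix factor of early germ cells, read 1408, 1814, 1842 and 1796 in KO arrays, against 279.5, 336, 419 and 380.2 in control arrays (log2 fold change 2.28 ± 0.08, limma adjusted p = 9.6e-05), a rise of similar size in every pair. The oocyte-type homeobox gene Obox6 averaged 219 ± 13.1 in KO arrays and 109 ± 14.6 in control arrays (log2 fold change 1.02 ± 0.12, limma adjusted p = 0.00590), and the egg coat gene Zp3 passed narrowly (log2 fold change 0.60 ± 0.15, limma adjusted p = 0.0496) and in no leave-out fit.

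Genes of primordial germ cell specification moved in both directions. Of 18 measured members 2 rose (11.1%) and 5 fell (27.8%), against 4.68% and 3.45% of all entries, with a median of -0.16. The 2 that rose were Tcl1 (log2 fold change 0.56) and Kit (0.54), and neither was called in every leave-out fit. Prdm1, the Blimp1 repressor of germ cell specification, read 202, 224, 227 and 173 in KO arrays, against 383, 416, 355 and 315 in control arrays (log2 fold change -0.83 ± 0.12, limma adjusted p = 0.00920). Utf1, a chromatin factor of ES and germ cells, read 4577, 6974, 4185 and 5862 in KO arrays, against 10054, 11665, 6764 and 9487 in control arrays (log2 fold change -0.82 ± 0.09, limma adjusted p = 0.00539), with all 4 pairs lower and some overlap between the groups. These 2 decreases were the ones that held in all 4 leave-out fits and without the block.

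**Figure D3:**
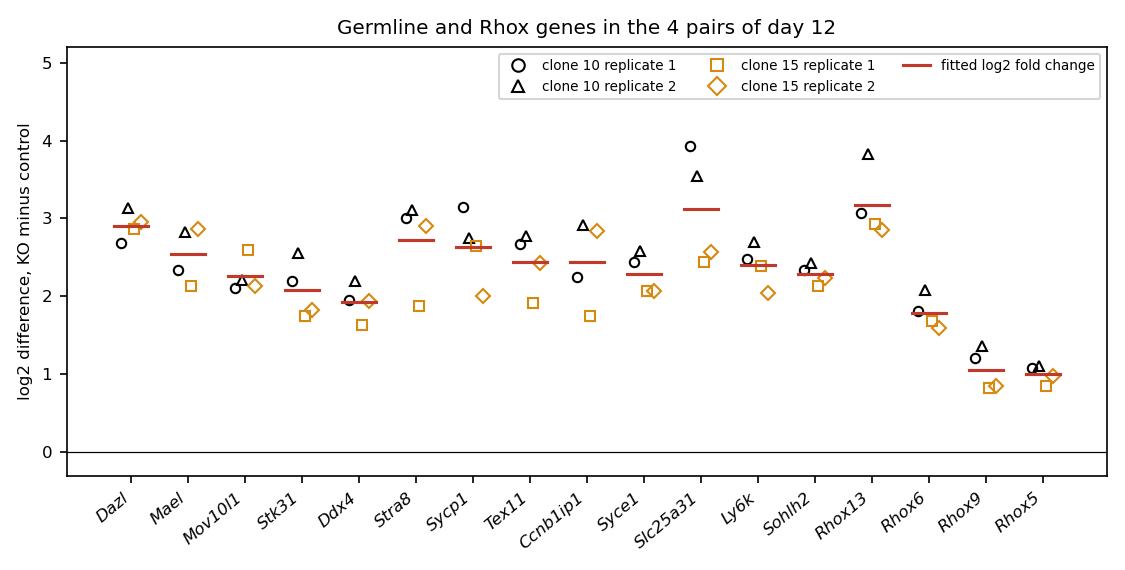
Log2 difference of KO minus control (y axis) in each of the 4 pairs of day 12 for 17 germline and Rhox genes, with the fitted log2 fold change as a red bar. Every pair of every gene lies above 0, and clone 15 replicate 1 is the lowest pair for Stra8, Ccnb1ip1 and Tex11 among others.

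Promoters of the germline increases were searched for the E-box CACGTG, which reads the same on both strands, and for the E2F motif GCGGGAA on either strand (TTCCCGC on the other), since E2f6 and Mga belong to variant PRC1. The windows were the RefSeq promoters of assembly GRCm38.p6, each 300 bases around the annotated start. Of 14452 tested genes with such a promoter, 10.2% held the E-box, 7.95% the E2F motif and 0.927% both. Over the 133 measured germline genes with a promoter the shares were 21.1%, 17.3% and 6.77%. Among the 28 germline genes with a promoter that rose, 9 (32.1%) held the E-box and 3 (10.7%) the E2F motif, against 18.1% and 19% of the germline genes that were not called higher. The E-box share was 13.7% among all 678 higher genes and 11.4% among all 501 lower genes with a promoter. None of the 9 promoters of higher 2-cell genes held either motif. A motif match is a description of the sequence and not a binding site. The promoters of 6 of the germline genes that rose are shown because they hold the E-box, in capitals, at different distances from the start. The Slc25a31 window is chr3:40708621-40708920 (plus strand), with the E-box starting 93 bases upstream of the start and an E2F match, also in capitals, from base 19 after it. The others are chr3:102936051-102936350 (minus strand, E-box 94 bases upstream) for Sycp1, chr1:166238695-166238994 (minus, 223) for Mael, chr15:88982744-88983043 (plus, 246) for Mov10l1, chr6:49395289-49395588 (plus, 55) for Stk31 and chrX:134476441-134476740 (minus, 49) for Taf7l.
Slc25a31: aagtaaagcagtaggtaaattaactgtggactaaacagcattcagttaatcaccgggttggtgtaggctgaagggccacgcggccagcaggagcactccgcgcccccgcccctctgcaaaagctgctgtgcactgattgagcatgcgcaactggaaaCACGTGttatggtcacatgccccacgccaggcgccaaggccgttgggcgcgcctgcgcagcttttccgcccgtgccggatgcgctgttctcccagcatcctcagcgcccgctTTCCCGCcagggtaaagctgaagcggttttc
Sycp1: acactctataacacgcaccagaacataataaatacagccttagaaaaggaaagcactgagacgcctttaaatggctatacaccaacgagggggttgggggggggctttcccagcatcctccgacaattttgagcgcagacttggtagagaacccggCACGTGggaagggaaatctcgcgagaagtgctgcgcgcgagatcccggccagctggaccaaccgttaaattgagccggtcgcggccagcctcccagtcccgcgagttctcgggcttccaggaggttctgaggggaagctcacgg
Mael: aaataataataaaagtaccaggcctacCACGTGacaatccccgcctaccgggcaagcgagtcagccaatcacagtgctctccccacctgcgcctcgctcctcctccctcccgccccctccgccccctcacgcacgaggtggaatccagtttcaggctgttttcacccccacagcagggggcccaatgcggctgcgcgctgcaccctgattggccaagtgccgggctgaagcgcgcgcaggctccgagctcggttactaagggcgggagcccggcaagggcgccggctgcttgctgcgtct
Mov10l1: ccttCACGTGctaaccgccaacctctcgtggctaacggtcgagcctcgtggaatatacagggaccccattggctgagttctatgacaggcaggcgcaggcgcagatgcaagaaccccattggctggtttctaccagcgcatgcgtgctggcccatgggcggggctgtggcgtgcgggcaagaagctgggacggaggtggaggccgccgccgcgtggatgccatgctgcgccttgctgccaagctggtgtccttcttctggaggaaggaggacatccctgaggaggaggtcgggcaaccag
Stk31: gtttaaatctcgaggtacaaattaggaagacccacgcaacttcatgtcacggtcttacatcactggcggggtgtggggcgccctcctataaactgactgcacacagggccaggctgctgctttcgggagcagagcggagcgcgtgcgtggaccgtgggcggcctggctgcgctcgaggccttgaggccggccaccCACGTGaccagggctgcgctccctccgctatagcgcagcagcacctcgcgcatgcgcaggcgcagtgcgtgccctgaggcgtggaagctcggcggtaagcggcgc
Taf7l: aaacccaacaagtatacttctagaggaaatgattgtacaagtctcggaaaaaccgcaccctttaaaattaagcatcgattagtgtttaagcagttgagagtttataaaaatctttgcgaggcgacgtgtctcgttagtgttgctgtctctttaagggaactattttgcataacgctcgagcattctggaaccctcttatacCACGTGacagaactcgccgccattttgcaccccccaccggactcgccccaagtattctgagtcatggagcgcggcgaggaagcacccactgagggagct
The promoters of Dazl, Stra8, Syce1, Ccnb1ip1 and Sohlh2, which also rose, held neither motif in this window.

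All 4 measured Rhox genes, X-linked homeobox genes of reproductive tissues and placenta, rose and held in all 4 leave-out fits and without the block. Rhox13 read 1451, 1125, 1182 and 827 in KO arrays, against 172, 79.3, 155 and 115 in control arrays (log2 fold change 3.17 ± 0.19, limma adjusted p = 0.000693). Rhox6 read 2352, 2366, 2470.2 and 1825 in KO arrays, against 673, 561, 769 and 604 in control arrays (log2 fold change 1.79 ± 0.11, limma adjusted p = 0.000766), and Rhox5, among the brightest transcripts, read 23776, 21869.6, 20446 and 19432 in KO arrays, against 11198, 10175, 11357 and 9878 in control arrays (log2 fold change 1.004 ± 0.08, limma adjusted p = 0.00143). In control arrays Rhox13 lay near the array median, while Rhox5 was already among the bright genes. Rhox9 averaged 1215 ± 279 in KO arrays and 586 ± 165 in control arrays (log2 fold change 1.06 ± 0.13, limma adjusted p = 0.00685). Every pair of Rhox9 rose, but the groups overlapped. They formed a run of 6 neighbouring higher genes with Gm9 (1.16 ± 0.26, limma adjusted p = 0.0382) and Zbtb33, which encodes the methyl-DNA-binding protein Kaiso (0.38 ± 0.07, limma adjusted p = 0.0243). Gm9 was called in 0 and Zbtb33 in 1 of the leave-out fits.

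The 12 largest decreases were smaller than the increases. The rule that picked them required a control mean above the array median, so their control level is no result. Myb, a transcription factor of blood progenitors, read 532, 388, 502 and 419.8 in KO arrays, against 1823, 1597, 1615 and 1226 in control arrays (log2 fold change -1.76 ± 0.10, limma adjusted p = 0.000693). Both remaining probe sets of Myb read similar log2 fold changes, -1.87 and -1.85. Otx2, a homeodomain factor of the epiblast and forebrain, read 614, 546, 616 and 564 in KO arrays, against 1817, 2333, 1735 and 1771 in control arrays (log2 fold change -1.70 ± 0.16, limma adjusted p = 0.00260), a similar fall in every pair. Ptch1, the Hedgehog receptor, read 1377, 1788, 941 and 1315 in KO arrays, against 3588, 3956, 2656 and 3118 in control arrays (log2 fold change -1.32 ± 0.10, limma adjusted p = 0.00125). The KO arrays of all 3 genes lay well below every control array. Gstt2, a glutathione transferase, averaged 415 ± 144 in KO arrays and 1041 ± 234 in control arrays (log2 fold change -1.37 ± 0.17, limma adjusted p = 0.00650), and Slc46a3, a lysosomal transporter, averaged 106 ± 28.5 in KO arrays and 262 ± 34.2 in control arrays (log2 fold change -1.34 ± 0.20, limma adjusted p = 0.0114).

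The other large decreases included Neurod1, a helix-loop-helix factor of neurons and pancreas, which read 677, 414, 864 and 439 in KO arrays, against 2166, 1485, 1367 and 1498 in control arrays (log2 fold change -1.49 ± 0.19, limma adjusted p = 0.00756). Insm1, a zinc finger factor of neuroendocrine cells, averaged 79.4 ± 14.9 in KO arrays and 255 ± 148 in control arrays (log2 fold change -1.54 ± 0.22, limma adjusted p = 0.00950), while a second probe set read -0.69 without a call. Crmp1, a mediator of axon guidance, averaged 592 ± 153 in KO arrays and 1545 ± 503 in control arrays (log2 fold change -1.36 ± 0.16, limma adjusted p = 0.00590). Without the block Neurod1 missed the threshold (limma adjusted p = 0.107), while Insm1 (0.0202) and Crmp1 (0.0315) passed. The synaptic genes Doc2a (log2 fold change -1.62 ± 0.26, limma adjusted p = 0.0135) and Syn1 (log2 fold change -2.27 ± 0.48, limma adjusted p = 0.0340) were called in 3 and 1 of the leave-out fits, and Syn1 had a limma adjusted p of 0.0542 without the block. Zfp750, a factor of epidermal differentiation, averaged 20.1 ± 18.3 in KO arrays and 116 ± 28.6 in control arrays (log2 fold change -2.88 ± 0.52, limma adjusted p = 0.0201) and was called in 1 leave-out fit. Gbp2, an interferon-induced GTPase, averaged 90.0 ± 38.0 in KO arrays and 227 ± 66.7 in control arrays (log2 fold change -1.38 ± 0.18, limma adjusted p = 0.00829), with 0.0843 without the block. The neuroectoderm list had 0 of 29 higher and 2 lower, with a median log2 fold change of 0.02. The 2 were Neurod1 and Olig1 (-0.76 ± 0.14, limma adjusted p = 0.0217, called in 1 leave-out fit). The 3 neuroectoderm cell markers summed to 219 to 303 in KO and 256 to 334 in control arrays, higher in KO in 2 of 4 pairs.

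Markers of the primed epiblast, the pluripotent state after implantation, moved downward where they were called. Of 30 measured members 0 rose and 6 fell (20.0%), against 4.68% and 3.45% of all entries, with a median of -0.13. Otx2 and Enpp3, an ectonucleotidase, held in all 4 leave-out fits and without the block. Enpp3 read 1274, 1300.2, 1559 and 1636 in KO arrays, against 2597, 2676, 2819.9 and 3210.0 in control arrays (log2 fold change -0.97 ± 0.07, limma adjusted p = 0.00136), and all 4 of its other probe sets were below 0. Dkk1, a Wnt antagonist of the same list, had the largest increase among members that did not pass (log2 fold change 1.46 ± 0.37, limma adjusted p = 0.0548).

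Naive pluripotency genes were mixed, with 7 of 45 higher and 3 lower. Fbxo15, an F-box protein marking ES cells, read 14481, 14045, 14109 and 13754 in KO arrays, against 6621, 6343, 7624 and 6856 in control arrays (log2 fold change 1.04 ± 0.09, limma adjusted p = 0.00224). Tbx3, a T-box repressor, averaged 859.6 ± 129.9 in KO arrays and 374 ± 89.5 in control arrays (log2 fold change 1.22 ± 0.12, limma adjusted p = 0.00347), although its other 4 probe sets spread from -0.84 to 1.48. The junction protein gene Jam2 averaged 2847 ± 218 in KO arrays and 1511 ± 97.1 in control arrays (log2 fold change 0.91 ± 0.06, limma adjusted p = 0.00112). The core factors had small log2 fold changes, and their groups overlapped. Pou5f1 read 11019, 10539, 7558 and 9477 in KO arrays, against 10734, 12568, 11135 and 11174 in control arrays (log2 fold change -0.25 ± 0.10, limma adjusted p = 0.194). Sox2 passed narrowly (log2 fold change -0.30 ± 0.07, limma adjusted p = 0.0417) and in no leave-out fit. Nanog did not pass (log2 fold change 0.36 ± 0.10, limma adjusted p = 0.0787).

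Components and feedback regulators of FGF-ERK signalling, the pathway that moves ES cells out of the naive state, moved in both directions. Of 31 measured members 2 rose (6.45%) and 6 fell (19.4%), against 4.68% and 3.45% of all entries, with a median of -0.10. Of the decreases, 4 held in all 4 leave-out fits, and without the block 3 members were called lower. Cnpy1, a regulator of FGF signalling, read 437, 333, 437 and 275 in KO arrays, against 940.3, 752, 900.1 and 672 in control arrays (log2 fold change -1.15 ± 0.08, limma adjusted p = 0.00125). Braf, a kinase upstream of ERK, averaged 932 ± 58.8 in KO arrays and 1490.3 ± 115 in control arrays (log2 fold change -0.68 ± 0.07, limma adjusted p = 0.00353), and all 8 of its other probe sets were below 0. Il17rd, a feedback inhibitor, averaged 398 ± 80.7 in KO arrays and 645 ± 98.2 in control arrays (log2 fold change -0.71 ± 0.07, limma adjusted p = 0.00371), but its other probe set read 0.31. Egr1, an immediate early target, read 556, 351, 438 and 335 in KO arrays, against 1742, 738, 1077 and 592 in control arrays (log2 fold change -1.21 ± 0.18, limma adjusted p = 0.0112). In each clone and group replicate 1 read higher than replicate 2, and without the block limma gave an adjusted p of 0.723.

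Genes of extraembryonic tissues rose in part. Of 37 primitive and visceral endoderm genes 6 rose and 2 fell, with a median of 0.63, and 1 increase held in all 4 leave-out fits. That gene, Cpn1, a secreted carboxypeptidase, read 269, 270.1, 249.7 and 180.1 in KO arrays, against 119.6, 72.5, 75.5 and 65.7 in control arrays (log2 fold change 1.56 ± 0.14, limma adjusted p = 0.00231), while its other probe set read 0.39. The uptake receptor genes Lrp2 (log2 fold change 1.14 ± 0.19, limma adjusted p = 0.0155) and Amn (log2 fold change 1.08 ± 0.17, limma adjusted p = 0.0120) were called in 2 and 3 leave-out fits. Pdgfra, a receptor of primitive endoderm, read 722, 435, 728 and 517 in KO arrays, against 225, 224, 284 and 110.2 in control arrays (log2 fold change 1.56 ± 0.36, limma adjusted p = 0.0453) and was called in none. Cubn, the partner of Amn, read 6461, 4505, 7066 and 4643 in KO arrays, against 2447, 3219.9, 1443 and 2063 in control arrays (log2 fold change 1.34 ± 0.58, limma adjusted p = 0.217) and did not pass, and its pairs differed widely. The summed intensity of the 6 primitive endoderm cell markers was 2238 to 4162 in KO and 1477 to 1957 in control arrays, higher in KO in 4 of 4 pairs, with 1 marker called and none below the lower quartile in both groups. The part of such cells in these changes was not tested.

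Of 37 genes of basement membrane and collagen assembly 4 rose and 2 fell. P4ha2, a collagen prolyl hydroxylase, averaged 1899.7 ± 294 in KO arrays and 841 ± 121 in control arrays (log2 fold change 1.17 ± 0.17, limma adjusted p = 0.00965), and Tgm2, a crosslinking enzyme, averaged 803 ± 97.4 in KO arrays and 415 ± 68.6 in control arrays (log2 fold change 0.96 ± 0.12, limma adjusted p = 0.00763, 0.0589 without the block). The collagen chaperone gene Serpinh1 averaged 6466 ± 685 in KO arrays and 3928 ± 504 in control arrays (log2 fold change 0.72 ± 0.12, limma adjusted p = 0.0175) and was called in 2 leave-out fits. Col18a1, a basement membrane collagen, fell, with 1493, 1944, 1565 and 1617 in KO arrays, against 3141, 3709.6, 2196 and 2921 in control arrays (log2 fold change -0.84 ± 0.11, limma adjusted p = 0.00756, 0.185 without the block). Of 39 genes on the wider feeder fibroblast list 2 rose and 1 fell, with a median of 0.26, and the list summed to 13556 to 14979 in KO and 11675 to 12995 in control arrays. Mfap5, a microfibril protein of that list, averaged 358 ± 54.5 in KO arrays and 179.6 ± 35.8 in control arrays (log2 fold change 1.003 ± 0.12, limma adjusted p = 0.00609). The part of feeder cells in these changes was not tested.

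Of 32 trophectoderm genes, which mark the outer layer of the blastocyst, 9 rose and 0 fell, with a median of 0.37 (0.20 with the floor). The count was 5 without the block, and 1 gene was called in all 4 leave-out fits. That gene was Cdx2, the trophectoderm homeobox factor, which read 76.0, 72.2, 12.0 and 26.4 in KO arrays, against 10.1, 12.4, 3.39 and 3.55 in control arrays (log2 fold change 2.55 ± 0.25, limma adjusted p = 0.00306). Its control values lay near background, its groups overlapped, the fold with the floor was 1.62 and its other probe set read -0.26. Plac1, a placental membrane protein, averaged 179.9 ± 31.3 in KO arrays and 65.0 ± 31.3 in control arrays (log2 fold change 1.64 ± 0.35, limma adjusted p = 0.0355) and was called in 1 leave-out fit. The 5 trophectoderm cell markers summed to 383 to 518 in KO and 335 to 490 in control arrays, higher in KO in 4 of 4 pairs, with 1 called. The part of such cells was not tested.

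Imprinted genes, expressed from 1 parental allele, moved in both directions. Of 50 measured, 6 were higher (12.0%) and 3 lower (6.0%), against 4.68% and 3.45% of all entries. Cdkn1c, an inhibitor of cyclin-dependent kinases, read 682, 1149.7, 642 and 1043 in KO arrays, against 209, 369.6, 230.0 and 424 in control arrays (log2 fold change 1.53 ± 0.10, limma adjusted p = 0.000915). Igf2, the fetal growth factor, read 1208, 1437, 1793 and 1223 in KO arrays, against 653, 780.2, 512 and 505 in control arrays (log2 fold change 1.21 ± 0.17, limma adjusted p = 0.00924). Both genes rose in every pair without overlap. Phlda2, a growth-restricting gene of placenta, averaged 8902 ± 1270.4 in KO arrays and 5234 ± 489 in control arrays (log2 fold change 0.76 ± 0.09, limma adjusted p = 0.00708), and Ndn, a growth suppressor of neurons, averaged 539.8 ± 147 in KO arrays and 274 ± 62.2 in control arrays (log2 fold change 0.97 ± 0.13, limma adjusted p = 0.00887), although the other 7 probe sets of Ndn spread from -1.09 to 2.23. Nnat, a small membrane protein of neurons, fell (166, 150.2, 126 and 139 in KO arrays, against 303, 318, 267 and 214 in control arrays, log2 fold change -0.92 ± 0.10, limma adjusted p = 0.00481). On the insulin-like growth factor axis 2 of 16 rose and 1 fell. Igfbp3, a binding protein for these factors, read 1053, 1438, 1034 and 951 in KO arrays, against 360.0, 361, 296 and 373 in control arrays (log2 fold change 1.67 ± 0.22, limma adjusted p = 0.00844). Igf2bp3, an RNA-binding protein of fetal tissues, read 757, 549, 491 and 664 in KO arrays, against 1688, 1489, 1185 and 1486 in control arrays (log2 fold change -1.26 ± 0.11, limma adjusted p = 0.00182), with all 5 of its other probe sets below 0.

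In the TGF-beta, Nodal and BMP list 7 of 41 rose (17.1%) and 2 fell (4.88%), against 4.68% and 3.45% of all entries. Inhbb, a subunit of activin and inhibin, averaged 632 ± 157 in KO arrays and 280.4 ± 27.1 in control arrays (log2 fold change 1.14 ± 0.12, limma adjusted p = 0.00367), and Id2, an inhibitor of helix-loop-helix factors and BMP target, averaged 2398 ± 178 in KO arrays and 1153 ± 311 in control arrays (log2 fold change 1.10 ± 0.13, limma adjusted p = 0.00650). Id1 also passed (log2 fold change 0.60 ± 0.09, limma adjusted p = 0.0114) and was called in 3 leave-out fits, but at 0.490 without the block. In the interferon response list 6 of 50 rose (12.0%) and 5 fell (10.0%). The 4 increases that held in all leave-out fits included Sp110, Xaf1 and Irf8. Xaf1, a pro-apoptotic factor, averaged 471 ± 41.0 in KO arrays and 183 ± 27.5 in control arrays (log2 fold change 1.37 ± 0.12, limma adjusted p = 0.00182, other probe set 0.20). Irf8, a transcription factor of immune cells, averaged 155 ± 18.5 in KO arrays and 73.2 ± 17.2 in control arrays (log2 fold change 1.11 ± 0.10, limma adjusted p = 0.00201). Among p53 targets and cell cycle inhibitors Cdkn1c was the 1 member of 33 that rose (3.03%), and 3 fell (9.09%). Bbc3, the cell death activator Puma, read 494, 625, 478 and 534 in KO arrays, against 936, 1226, 780.1 and 1053 in control arrays (log2 fold change -0.90 ± 0.08, limma adjusted p = 0.00221, 0.107 without the block).

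Some Polycomb components passed the test. Of 13 canonical PRC1 genes 2 rose (15.4%) and 1 fell (7.69%). Of 26 variant PRC1 genes 1 rose and 1 fell (3.85% each), and of 12 PRC2 genes 0 rose and 1 fell (8.33%). Over all entries the shares were 4.68% higher and 3.45% lower, and with lists this short the difference from them was not tested. E2f6, the DNA-binding factor of a variant form, read 961, 1135, 1153 and 1293 in KO arrays, against 673, 662, 645 and 827 in control arrays (log2 fold change 0.69 ± 0.08, limma adjusted p = 0.00455). Mga, its E-box-binding partner, averaged 2112 ± 172 in KO arrays and 2769.9 ± 416 in control arrays (log2 fold change -0.38 ± 0.09, limma adjusted p = 0.0425) and was called in no leave-out fit. Phc2, a canonical subunit, averaged 864 ± 109 in KO arrays and 467 ± 111 in control arrays (log2 fold change 0.91 ± 0.13, limma adjusted p = 0.0104) and was called in 3. The PRC2 methyltransferase gene Ezh1 averaged 643 ± 119 in KO arrays and 987 ± 78.0 in control arrays (log2 fold change -0.64 ± 0.14, limma adjusted p = 0.0378) and was called in none.

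Developmental genes that Polycomb proteins are known to hold silent showed few calls. Of 33 Hox genes limma called 0 higher and 0 lower, with or without the block, and 2 had an unadjusted p under 0.05. The list had a median log2 fold change of 0.42, which was 0.05 with the floor. In 14 of the 33 both group means were below 28.3, and Hoxb13 had the largest fold, with 30.6, 40.9, 32.02 and 33.5 in KO arrays, against 3.66, 6.13, 9.89 and 34.5 in control arrays (log2 fold change 1.86 ± 0.58, limma adjusted p = 0.0998). Of 124 other Polycomb-target transcription factors 4 rose and 3 fell, shares of 3.23% and 2.42%, below those of all genes. Among them Foxa1, a forkhead factor of endoderm, averaged 63.9 ± 18.1 in KO arrays and 8.69 ± 5.83 in control arrays (log2 fold change 3.14 ± 0.59, limma adjusted p = 0.0227) and was called in no leave-out fit. In 29 of the 124 both means were below 28.3, so changes there were not measurable on this array. Of 28 mesoderm genes 2 rose and 0 fell, and neither held without the block.

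Of the remaining lists, DNA methylation and retroviral silencing factors had 2 of 36 higher and 3 lower, among them the methyl-binding protein gene Mbd3 (log2 fold change -0.63 ± 0.08, limma adjusted p = 0.00802, 0.107 without the block). Glycolysis and hypoxia genes had 1 of 31 higher and 3 lower, with Pdk1, a kinase that blocks pyruvate dehydrogenase, at -0.55 ± 0.07 (limma adjusted p = 0.00751, 0.0741 without the block). Heat shock and endoplasmic reticulum chaperones had 4 of 36 higher and 0 lower, led by the inducible Hspa1b (log2 fold change 1.17 ± 0.17, limma adjusted p = 0.0103), which was called in 3 leave-out fits. Cell adhesion and cytoskeleton genes had 9 of 52 higher and 3 lower, a count that fell to 0 and 1 without the block. Of these Cd9, a tetraspanin, averaged 11799 ± 871 in KO arrays and 7985 ± 476 in control arrays (log2 fold change 0.56 ± 0.06, limma adjusted p = 0.00539, 0.169 without the block). Wnt signalling had 1 of 53 higher and 2 lower, the amino acid stress response 2 of 38 and 3, cholesterol synthesis 2 of 20 and 0, and housekeeping genes 1 of 28 and 0.

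**Figure D4:**
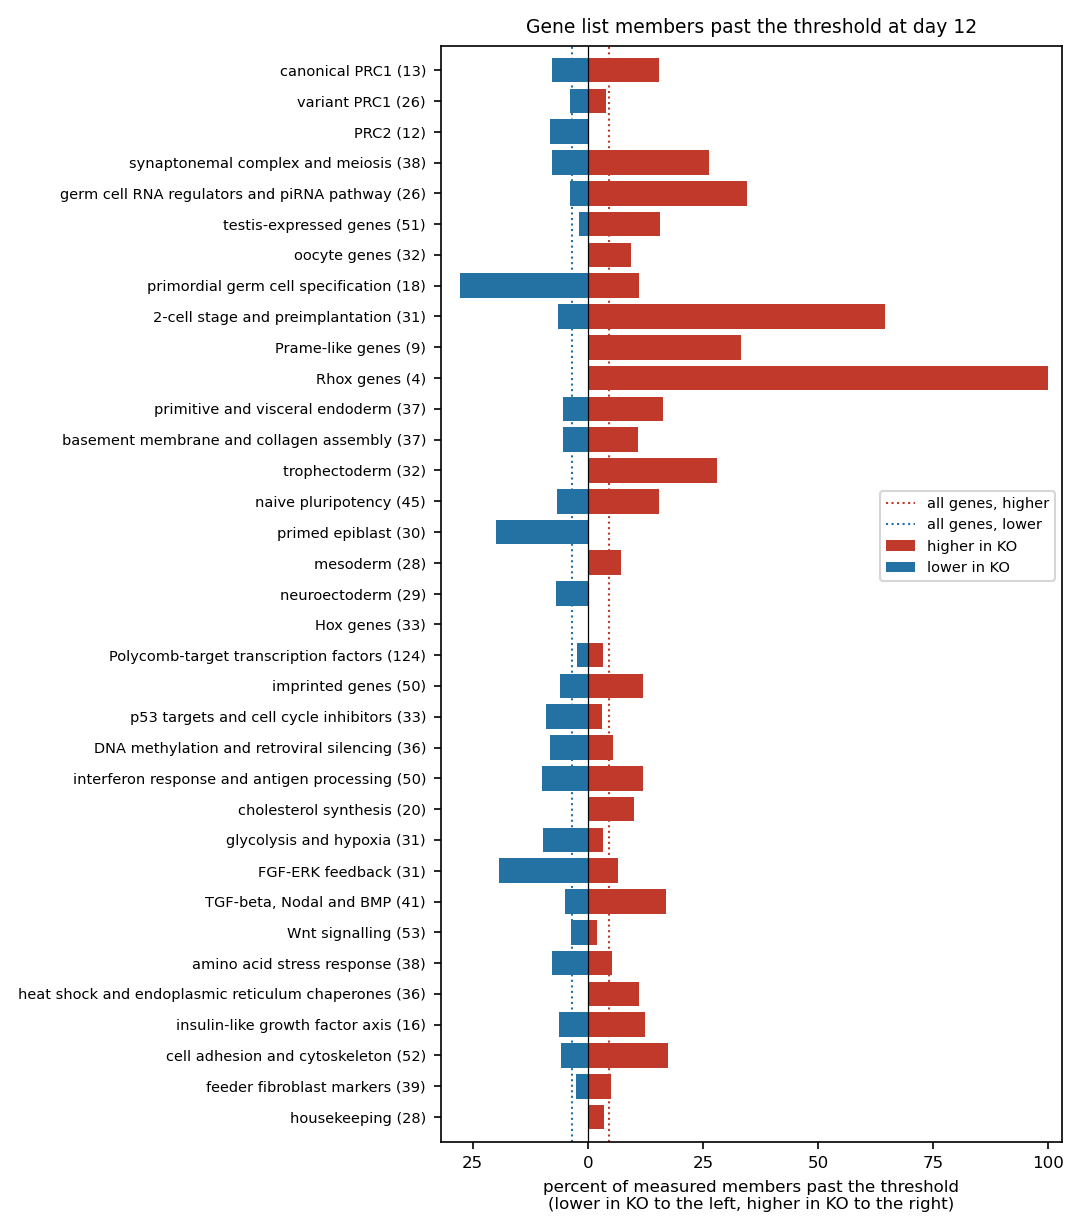
Percent of the measured members of each gene list (number in brackets) that were higher in KO (red, to the right) or lower (blue, to the left) at day 12, with the shares over all genes dotted (4.68% and 3.45%). The Rhox, 2-cell, germ cell RNA, Prame-like and trophectoderm lists reach furthest to the right, and the primordial germ cell, primed epiblast and FGF-ERK lists furthest to the left.

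The day 12 response was then set beside that of day 4, which has its own controls. At day 4 limma called 134 genes higher (0.736%) and 44 lower (0.242%). Of these, 122 of the higher genes (91.0% of those of day 4 and 14.3% of those of day 12) and 30 of the lower genes (68.2% and 4.78%) were called in the same direction at both days. Among the 852 genes higher at day 12, 772 (90.6%) also had a day 4 log2 fold change above 0, as 51.7% of all entries had. Among the 627 lower genes 577 (92.0%) were below 0 at day 4, as 48.3% of all entries were. The median log2 fold change of the higher genes was 0.70 at day 12 and 0.31 at day 4, and that of the lower genes -0.57 at day 12 and -0.25 at day 4. Since these genes were chosen by their day 12 values, a smaller median at day 4 is a description without a test. Among germline genes, Stra8 read 2.72 at day 12 and 0.93 at day 4, Dazl 2.91 and 1.83, and Sycp1 2.64 and 2.41. Among decreases, Otx2 read -1.70 at day 12 and -0.85 at day 4, Myb -1.76 and -1.03, and Ptch1 -1.32 and -0.57.

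Tested gene by gene, the difference of the KO effect between day 12 and day 4 passed for 1 gene (0.0055%), Tmlhe, the first enzyme of carnitine synthesis, while 1702 entries had an unadjusted p under 0.05. At day 12 Tmlhe read 303, 144, 236 and 130.2 in KO arrays, against 111, 35.2, 69.4 and 33.1 in control arrays (log2 fold change 1.81 ± 0.12, limma adjusted p = 0.000895). The groups did not overlap, although replicate 1 exceeded replicate 2 in each clone and group, and the other 3 probe sets read 0.52 to 1.43. At day 4 Tmlhe averaged 61.2 ± 12.2 in KO and 91.4 ± 20.6 in control arrays (log2 fold change -0.57 ± 0.12). The difference was 2.37 ± 0.17 (limma adjusted p = 0.0341), and without the block 0 genes passed. A single gene, 2310047D07Rik, was called in opposite directions at both days, at -0.43 at day 12 (limma adjusted p = 0.0329) and 0.74 at day 4 (0.0212), but the difference itself did not pass (0.173). It was called at day 12 in no leave-out fit and was singled out after its values were seen.

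**Figure D5:**
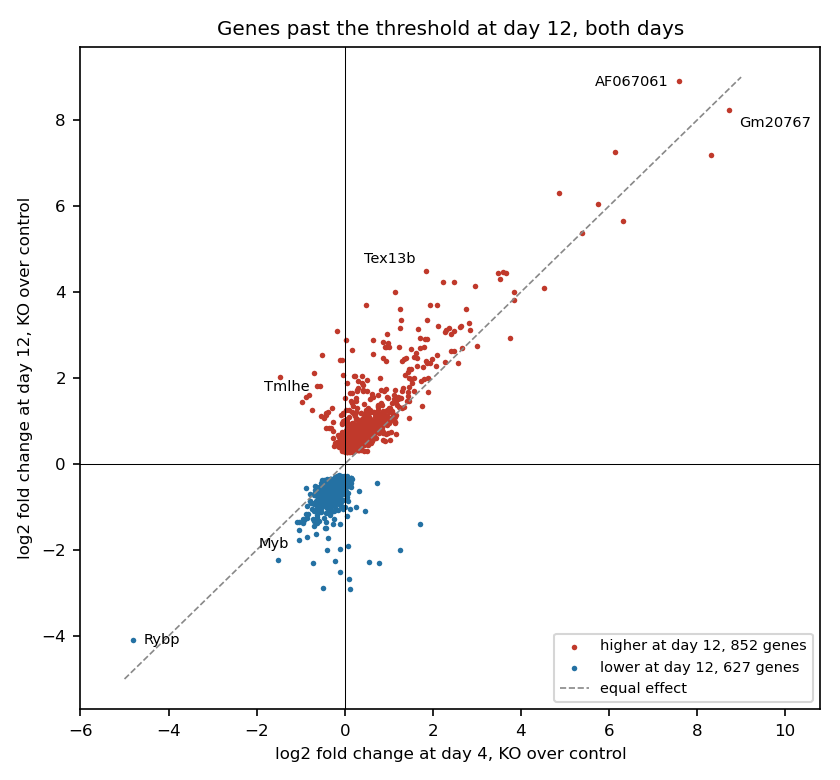
Log2 fold change of KO over control at day 12 (y axis) against day 4 (x axis) for the 852 genes higher and the 627 genes lower at day 12, with the line of equal effect dashed. Most points share their sign between the days and lie further from 0 at day 12, and Tmlhe is the gene whose difference between days passed the test.

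The KO effect at day 12 was also compared between clone 15 and clone 10. Limma called 0 genes (0%), with 1015 entries at an unadjusted p under 0.05 and a smallest adjusted p of 0.378. With 2 pairs per clone this does not show that the clones respond alike. Across 10850 genes brighter than the array median, the log2 differences of the 4 pairs correlated at r = 0.49 to 0.65, a description across genes, which are not independent replicates. The 3 lowest values involved clone 15 replicate 1.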

How the data were processed

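Total RNA was labelled with biotin and hybridised, per the labels' protocols. The table deposited by the authors holds linear intensity values, 1 per probe set and array, made with Affymetrix Expression Console and RMA, per the submitters' processing notes, which give no version. The design text names the 430A 2.0 array, but the table holds 45101 probe sets. All 16 arrays hold the same sorted values, from 0.144 to 52570, so they had been quantile-normalized before deposit. Precision is limited by the number of arrays. The genome build of the probe design is not given in the sources used here.

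The values were log2-transformed with no offset. Gene names came from the platform annotation of the probe sets: 34945 had 1 symbol, 932 several and 9160 none, and 64 control probe sets were left out. Of the named sets 34741 matched the mouse annotation by Entrez identifier. For each of 18193 genes the probe set with the highest mean was used (9010 genes had more than 1). Limma 3.58.1 in R 4.3.3 was fitted across all genes with the 8 pairs as a block and a KO effect per day, with empirical Bayes moderation and Benjamini-Hochberg adjustment. The pairing comes from the clone and replicate number in the labels. The deviations of paired arrays from their group means correlated at r = 0.29 to 0.68 in all 8 pairs. The fitting steps were tested on simulated data.

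Named genes were Rybp, the 12 largest changes in each direction by floored fold (same sign in 4 of 4 pairs and a mean above the array median in the higher group), list members with the largest folds, genes of runs of 3 or more neighbours, genes that differed between days, and cell markers. Members of the 35 lists and the comparisons were chosen with earlier results of these data known. Promoter sequences are from RefSeq, assembly GRCm38.p6, which otherwise served for names and gene order. Alternatives were the fit without pairs, a floor or offset on low values, dim genes left out, other uses of probe sets, a trend in the moderation, day 12 arrays alone, each replicate number alone and each pair left out.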

Additional observations from a re-analysis of the deposited data

Results flagged for a closer look

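In 15 of the 252 groups of 4 arrays checked (126 genes), 1 array lay far from the other 3 by Dixon's test at the 95% level, where chance gives about 1 in 20. Of the KO groups, Ccnb1ip1 read 475.9 on clone 10 replicate 2 against 432 to 435.6 on the others, Sohlh2 read 1408 on clone 10 replicate 1 against 1796 to 1842, and Rhox6 read 1825 on clone 15 replicate 2 against 2352 to 2470. The other 12 were control groups. Control clone 15 replicate 1 was the odd array 6 times, with Tex13b at 2.435 (others 44.27 to 61.5), Sycp1 at 36.21 (73.95 to 83.85), Duxf3 at 6.171 (39.77 to 53.55), Plce1 at 26.97 (64.41 to 72.72), Xaf1 at 223.7 (165.3 to 173.6) and Igfbp3 at 296.3 (360 to 373.4). Control clone 15 replicate 2 stood apart for Ubtfl1 at 1.916 (23.42 to 35.13) and E2f6 at 826.9 (644.8 to 672.7). Control clone 10 replicate 2 stood apart for Otx2 at 2333 (1735 to 1817) and Sp110 at 59.77 (83.39 to 87.17), and control clone 10 replicate 1 for Taf7l at 9.185 (84.94 to 91.52) and Pramel13 at 607.8 (836.8 to 871.6).

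The KO effect on Tmlhe differed between day 12 and day 4 by 2.375 on the log2 scale (limma adjusted p = 0.0341). Probe sets outside the named genes also carried calls. Tested over every probe set, 37 of the 932 with several symbols were higher and 6 lower in KO at day 12, and of the 9160 with no symbol 41 were higher and 54 lower, against 523 and 373 of the 34945 with 1 symbol.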

How the results depend on the processing

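Beside 852 genes higher and 627 lower in KO, the fit without the replicate block gave 399 and 164, values raised to the lower quartile 1402 and 1042, the mean of all probe sets of a gene 458 and 314, and a trend in the moderation 1533 and 1278. Day 12 arrays alone with the block gave 45 and 6. Arrays numbered replicate 1 alone gave 0 and 0 and replicate 2 alone 0 and 0 by limma, with 1992 and 2757 entries at an unadjusted p under 0.05, in fits of fewer arrays. Leaving out a pair gave 266 (without clone 15 replicate 2) to 625 (without clone 15 replicate 1) higher and 170 to 525 lower genes. Without clone 10 replicate 1 the counts were 319 and 207, and without clone 10 replicate 2 they were 347 and 212. The count for the difference between days, 1, was 0 without the replicate block, 2 with values raised to the lower quartile, 0 over every probe set, 0 for the mean of probe sets, 69 with a trend and 0 to 1 in the leave-out fits, where it was 0 without any pair but clone 10 replicate 1. The clone difference, 0, became 1 with a trend.

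Of 118 named genes past the threshold, 92 kept their call without the block, 92 over every probe set, 86 for the mean of probe sets, 85 to 96 without a pair, and 23 with day 12 arrays alone. Their direction held in all these settings except for H13, which was -0.27 for the mean of its probe sets (limma adjusted p = 0.398). Spread grows towards low intensities, which limits folds of genes with dim controls.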
